A study of Mus musculus with 110 samples.

Results

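Penk, Pdyn, Tac1, Cartpt and Pthlh are 5 of the 24056 genes with a unique symbol in the deposited count table. They were picked out by symbol, with earlier results of these data known. They encode the precursors of peptides that striatal projection neurons and some of their neighbours release. Their values were read in every one of the 110 libraries of the study, in which mutant huntingtin had been lowered in astrocytes or in neurons of R6/2 mice by zinc-finger protein (ZFP) repressors. R6/2 mice carry a fragment of human huntingtin with an expanded CAG repeat and are a fast model of Huntington's disease.

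The libraries fell into 4 conditions: ND, labelled NCAR with the control virus Delta; NZ, NCAR with ZFP; RD, R6/2 with Delta; and RZ, R6/2 with ZFP. The labels do not spell out NCAR, and the strain tag of every sample, NCAR included, reads R6/2 (Jax #006494). Adeno-associated viruses (AAVs) specific for a cell type delivered the ZFP or Delta. The sources used here give neither the promoter, nor the cell type that made the ZFP in a given set, nor the age of the mice. The labels do not state the tissue either, so sentences on the striatum are background. Ribosomes tagged through RiboTag were pulled down with an HA antibody (IP), so an IP library samples RNA bound to ribosomes of the tagged cell type, and an Input library samples the starting tissue. There were 4 sets. The MG set held astrocyte IPs only (4 libraries per condition). The hSyn set was labelled neurons (5 ND, 4 NZ, 3 RD and 4 RZ in each fraction). The n_ZFP_a_Rpl set was labelled astrocytes (4, 4, 3 and 4 in that order), and the n_ZFP_n_Rpl set was labelled neurons (4 of each). That made 63 IP and 47 Input libraries in 7 combinations of set and fraction. The labels number the replicates but do not state whether each was a separate animal, so p-values measure the spread between these samples, which may be in part technical.

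Projection neurons make up most of the striatum and fall into an indirect pathway class, which expresses the dopamine receptor Drd2 together with Penk, and a direct pathway class, which expresses Drd1 together with Tac1 and Pdyn. Each precursor is cut in secretory granules into short peptides that act on G-protein-coupled receptors. Proenkephalin (Penk) yields enkephalins, which act mainly on delta and mu opioid receptors, and prodynorphin (Pdyn) yields dynorphins, which act mainly on kappa receptors. Tac1 yields substance P and neurokinin A, ligands of the tachykinin receptors. Cartpt encodes the cocaine- and amphetamine-regulated transcript peptide, and Pthlh encodes parathyroid hormone-related protein, which in the striatum is a known marker of a class of interneurons. Loss of enkephalin ahead of substance P is a classical feature of the striatum in Huntington's disease.

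The genes lie at 5 separate loci of the mouse assembly GRCm38.p6 (mm10), and no other annotated gene overlapped any of them. Pdyn spans chr2:129686549-129699938, Penk chr4:4133536-4138815, Tac1 chr6:7555061-7562978, Pthlh chr6:147252109-147264013 and Cartpt chr13:99898483-99910179. RefSeq promoter sequences of this build covered 4 of the 5 genes, all but Penk. Below are the 250 bases before a start site for the direct pathway pair Tac1 and Pdyn, whose levels parted in R6/2, and for Cartpt, all in the direction of transcription. Capitals mark matches to TGACGTCA (the cAMP response element), to its core TGACG or to TGCGTCA, read on both strands.
Tac1: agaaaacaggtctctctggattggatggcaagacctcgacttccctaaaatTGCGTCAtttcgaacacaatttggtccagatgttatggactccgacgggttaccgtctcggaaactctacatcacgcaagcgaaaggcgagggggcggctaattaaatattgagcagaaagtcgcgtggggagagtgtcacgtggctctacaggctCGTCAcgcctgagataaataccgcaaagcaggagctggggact
Pdyn: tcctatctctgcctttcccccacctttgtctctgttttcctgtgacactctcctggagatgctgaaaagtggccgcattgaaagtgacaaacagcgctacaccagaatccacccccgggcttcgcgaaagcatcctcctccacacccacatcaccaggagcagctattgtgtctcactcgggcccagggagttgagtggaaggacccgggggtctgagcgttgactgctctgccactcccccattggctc
Cartpt: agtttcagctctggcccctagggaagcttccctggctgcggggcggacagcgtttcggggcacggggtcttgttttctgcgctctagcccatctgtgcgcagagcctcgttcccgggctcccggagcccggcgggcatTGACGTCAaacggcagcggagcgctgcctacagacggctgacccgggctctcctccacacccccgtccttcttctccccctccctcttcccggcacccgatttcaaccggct
The windows are chr6:7554811-7555060 on the plus strand for Tac1, chr2:129699939-129700188 on the minus strand for Pdyn and chr13:99900684-99900933 on the minus strand for Cartpt, whose window precedes an inner start site. TGCGTCA began 199 bases and TGACG on the opposite strand 43 bases before the Tac1 start, and TGACGTCA began 112 bases before the Cartpt start. The Pdyn window and that of Pthlh (chr6:147264014-147264263, minus strand) held none of these, nor TGANTCA or TATAAA. Among 32851 promoters of the same length, TGACGTCA was present in 1.55%, TGCGTCA in 1.75%, TGACG, which overlaps both, in 17.8%, TGANTCA in 6.75% and TATAAA in 12.4%. Guanine and cytosine made up 51.2% of the Tac1 window, 57.2% of Pdyn, 66.8% of Cartpt and 75.2% of Pthlh, against a median of 52.4% over all promoters. These matches describe letters only.

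Libraries held between 26.4 and 72.6 M counts (M, 1000000). All 5 genes had at least 15 counts in every library and passed the filter on low counts in every fit. Levels below are CPM (counts of a gene per 1000000 counts of its library) scaled by the trimmed mean of M-values within each set and fraction. They allow a gene to be compared between the libraries of a set and fraction, but not with another gene. Fold changes are from edgeR's quasi-likelihood test, a difference was called at an adjusted p (Benjamini-Hochberg over all genes tested) under 0.05, and errors of log2 fold changes are standard errors (SE). Whether groups of libraries overlapped was read for these 5 genes and for sums of markers. It was not counted over all genes, so how unusual a lack of overlap is was not tested. In bulk RNA, fewer cells of a type and less RNA per cell cannot be told apart.

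The comparison of RD with ND asks how the precursors differ in R6/2 mice when no repressor is present. Penk, Pdyn and Pthlh fell in all 7 combinations, Cartpt fell in 6 of 7, and Tac1 fell in 2 of 7. IP and Input libraries of a set mostly deviated together, so the 7 combinations, from 4 sets, are not independent. The number of the 5 genes called lower was 3 in the MG IPs, where 16.2% of all genes were called lower, 4 in the hSyn Inputs (21.6%), 4 in the hSyn IPs (25.5%), 5 in the n_ZFP_a_Rpl Inputs (24.7%), 4 in the n_ZFP_a_Rpl IPs (24.7%), 5 in the n_ZFP_n_Rpl Inputs (23.7%) and 4 in the n_ZFP_n_Rpl IPs (26.2%). Their median log2 fold change ran from -1.15 in the MG IPs to -2.36 in the n_ZFP_n_Rpl IPs, while the median over all genes tested lay between -0.00198 and 0.0353. None of the 5 was called higher in any of these comparisons.

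The comparison of RZ with RD asks how the precursors differ in R6/2 mice once the ZFP is added. No member was called in the MG or the hSyn set, where edgeR called few genes of any kind. In the MG IPs 0 of 5 genes were called higher by edgeR, where 0.013% of all genes were and 1350 genes were higher at an unadjusted p under 0.05. DESeq2 called 223 genes higher there, and none of the 5. In the hSyn Inputs the count was 0 of 5 (0% of all genes, 320 at unadjusted p, 3 by DESeq2), and in the hSyn IPs 0 of 5 (0.00652%, 584 and 12). In the n_ZFP_a_Rpl set 3 of 5 rose in the Inputs, where 11.1% of all genes did, and 4 of 5 in the IPs (19.1%). In the n_ZFP_n_Rpl set 2 of 5 rose in the Inputs (2.49%) and 4 of 5 in the IPs (9.47%). The members' median log2 fold change was 0.63 and 0.67 in the Inputs and IPs of n_ZFP_a_Rpl and 0.86 and 1.00 in those of n_ZFP_n_Rpl, beside medians over all genes between -0.00627 and 0.00446. No member fell by edgeR's test in any of the 7.

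**Figure D1:**
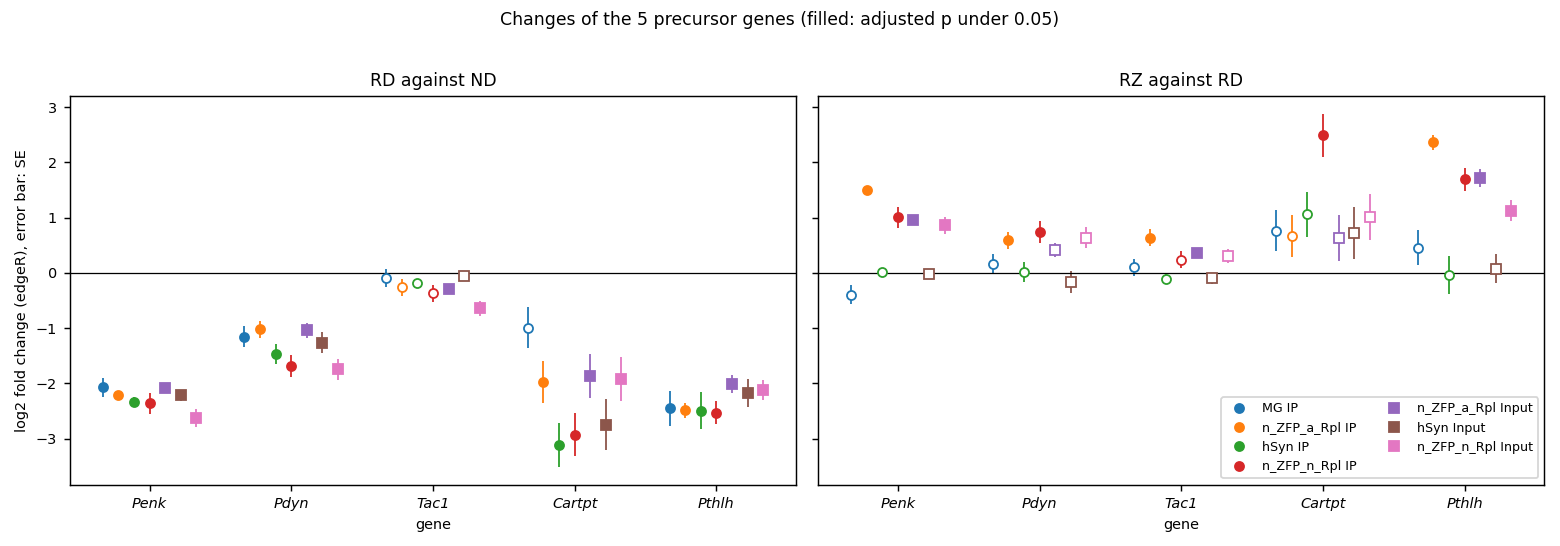
Log2 fold change of each precursor gene in R6/2 with Delta against NCAR with Delta, and in R6/2 with ZFP against R6/2 with Delta, for the 7 combinations of set and fraction; bars span 1 SE and filled points passed an adjusted p under 0.05. Penk, Pdyn and Pthlh lie below 0 in every R6/2 comparison, Tac1 lies closest to 0, and the points of the ZFP comparison lie above 0 in the n_ZFP_a_Rpl and n_ZFP_n_Rpl sets.

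Penk, the enkephalin precursor of indirect pathway neurons, fell in every comparison of RD with ND. In the neuron IPs of the hSyn set it stood at 2403, 2490, 2615, 2879 and 2901 CPM in ND and at 493, 544 and 550 CPM in RD. All 3 RD libraries lay far below the lowest ND library. The fold change was 5.02-fold lower (log2 -2.33, SE 0.09, adjusted p = 6.14e-12). The matching Inputs ran from 1693 to 2053 CPM in ND and from 392 to 395 CPM in RD (log2 -2.22, SE 0.10).

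In the other sets the fall of Penk was of similar size. The MG IPs held 1525, 1597, 1680 and 1691 CPM in ND and 297, 328, 428 and 489 CPM in RD (4.21-fold lower, SE 0.17 on the log2 scale, adjusted p = 5.1e-07). The n_ZFP_a_Rpl IPs held 1221, 1316, 1332 and 1338 CPM in ND and 244, 298 and 299 CPM in RD (4.64-fold lower). In the n_ZFP_n_Rpl IPs ND libraries were more scattered, at 1164, 1614, 1778 and 2020 CPM, against 266, 289, 348 and 377 CPM in RD (5.14-fold lower). ND and RD did not overlap in any of the 7 combinations. The log2 fold change ranged from -2.07 in the MG IPs to -2.62 (SE 0.16) in the n_ZFP_n_Rpl Inputs.

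With the ZFP, Penk rose in both fractions of n_ZFP_a_Rpl and n_ZFP_n_Rpl. The RZ libraries of the n_ZFP_a_Rpl IPs stood at 749, 756, 797 and 868 CPM, all above the 3 RD libraries and below the 4 ND libraries. This was 2.83-fold over RD (log2 1.50, SE 0.08, adjusted p = 6.69e-09), and still lower than ND by a log2 fold change of -0.72 (SE 0.07). In the Inputs of that set RZ held 571, 578, 606 and 608 CPM against 278, 309 and 331 CPM in RD (log2 0.95, SE 0.06).

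In the n_ZFP_n_Rpl IPs Penk stood at 463, 572, 683 and 845 CPM in RZ, 2.00-fold over RD (log2 1.00, SE 0.19, adjusted p = 0.00219). The Inputs held 241, 283, 352 and 403 CPM in RZ against 168 to 183 CPM in RD (log2 0.86, SE 0.16). No RZ library overlapped RD in these 4 comparisons, nor ND. In the hSyn IPs, by contrast, RZ held 494, 518, 538 and 575 CPM, overlapping RD, and the log2 fold change was 0.01 (SE 0.08, adjusted p = 0.994). The MG IPs of RZ lay at 240, 265, 270 and 399 CPM (log2 -0.39, SE 0.17, adjusted p = 0.235). Without RZ replicate 1, the library at 399 CPM, Penk passed the threshold there in the lower direction (adjusted p = 0.0205).

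**Figure D2:**
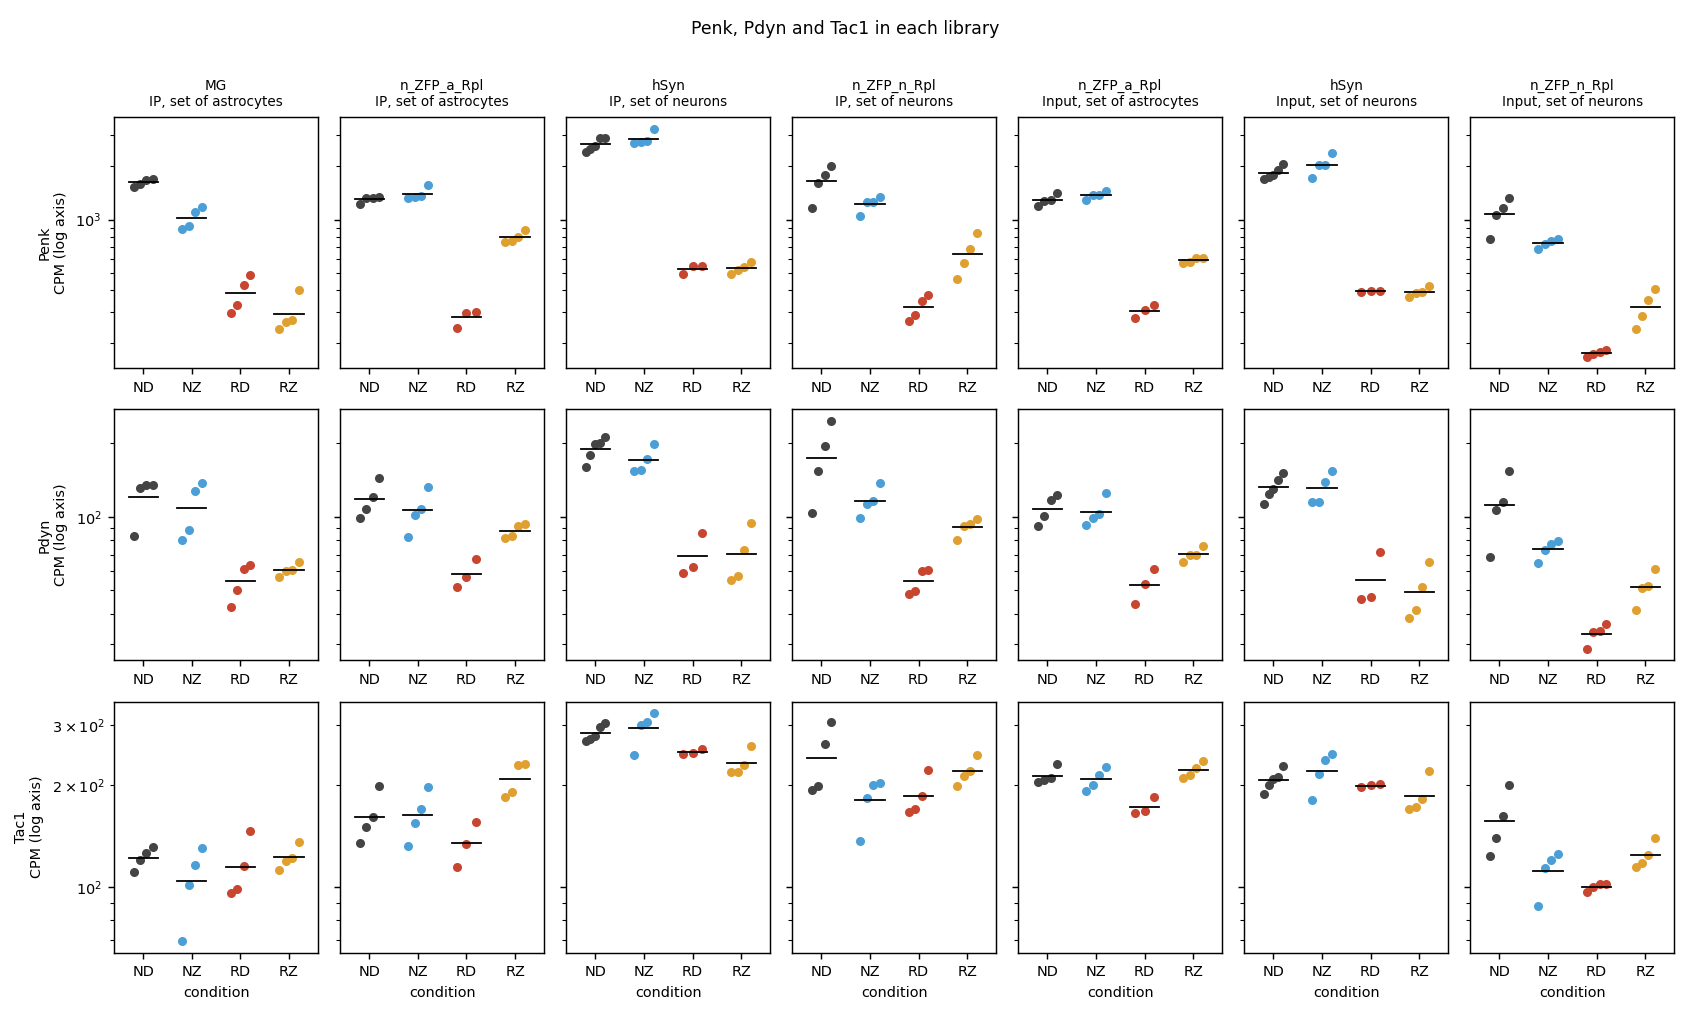
Level of Penk, Pdyn and Tac1 in each library, in CPM on a log axis, by set, fraction and condition; each point is 1 library and each bar is the group mean. Penk libraries of R6/2 with Delta lie below those of NCAR with Delta without overlap in all 7 combinations, whereas those of Tac1 overlap in 4 of 7. Overlap was not counted over all genes.

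Pdyn, the dynorphin precursor of direct pathway neurons, also fell in all 7 combinations, with a smaller log2 fold change than Penk in each. Its hSyn IP libraries stood at 160, 179, 200, 201 and 214 CPM in ND and at 58.6, 62.4 and 85.8 CPM in RD (2.76-fold lower, log2 -1.47, SE 0.18, adjusted p = 1.36e-05). The n_ZFP_a_Rpl IPs held 99.3, 108, 120 and 145 CPM in ND and 51.5, 56.4 and 67.0 CPM in RD (2.02-fold lower). ND and RD did not overlap in any of the 7 combinations. The smallest fall was in those n_ZFP_a_Rpl IPs (log2 -1.02, SE 0.15), and the largest in the n_ZFP_n_Rpl Inputs (log2 -1.75, SE 0.19). In the MG IPs 3 ND libraries lay between 131 and 135 CPM and replicate 3 at 83.3 CPM, still above the RD libraries at 42.7 to 63.7 CPM (log2 -1.15, adjusted p = 2.27e-04).

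The response of Pdyn to the ZFP passed the threshold in the IPs of 2 sets. RZ held 81.9, 83.1, 91.7 and 93.6 CPM in the n_ZFP_a_Rpl IPs (log2 0.59 over RD, SE 0.15, adjusted p = 0.00902). In the n_ZFP_n_Rpl IPs RZ held 80.5, 91.7, 93.9 and 98.3 CPM against 48.2, 49.7, 59.8 and 60.3 CPM in RD (log2 0.74, SE 0.20, adjusted p = 0.0172). RZ and RD did not overlap in either fraction of both sets. In the Inputs the log2 fold changes were 0.41 (SE 0.13, adjusted p = 0.0522) in n_ZFP_a_Rpl and 0.63 (SE 0.19, adjusted p = 0.0956) in n_ZFP_n_Rpl, and did not pass. The first of these passed under RLE scaling (adjusted p = 0.0483), DESeq2 (0.00261) and a fit of the 2 groups alone (0.0305), and without ND replicate 2 or 4, NZ replicate 1 or RD replicate 1 (0.023 to 0.0468). The second passed with DESeq2 (0.00847), in the 2 groups alone (0.0188) and without ND replicate 1 (0.0156) or 3 (0.0373). In the hSyn IPs the log2 fold change was 0.02 (SE 0.18) and in the MG IPs 0.15 (SE 0.18). Pdyn stayed below ND in all 7 comparisons of RZ with ND.

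Tac1, the substance P precursor of the same direct pathway neurons, gave smaller log2 fold changes between ND and RD than Penk or Pdyn in each combination. In the MG IPs it stood at 111, 120, 126 and 131 CPM in ND and at 96.1, 98.6, 116 and 147 CPM in RD, so that the groups overlapped (log2 -0.09, SE 0.16, adjusted p = 0.689). The n_ZFP_a_Rpl IPs overlapped too, with 135, 150, 161 and 199 CPM in ND and 114, 134 and 155 CPM in RD (log2 -0.26, SE 0.15, adjusted p = 0.187). Among the hSyn IPs ND held 270, 272, 278, 296 and 305 CPM and RD 246, 248 and 255 CPM, with no overlap (log2 -0.18, SE 0.08, adjusted p = 0.0585). That difference passed with DESeq2 (adjusted p = 0.0431), in a fit of the 2 groups alone (0.0131), and without NZ replicate 1 or 2 or RZ replicate 4 (0.0162 to 0.0455).

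Tac1 fell past the threshold in 2 Inputs. The n_ZFP_n_Rpl Inputs held 123, 139, 162 and 200 CPM in ND and 96.6, 99.9, 102 and 102 CPM in RD (1.56-fold lower, SE 0.13 on the log2 scale, adjusted p = 8.02e-04). In the n_ZFP_a_Rpl Inputs the fall was 1.23-fold, from 204 to 231 CPM in ND to 166 to 185 CPM in RD (adjusted p = 3.73e-04). In the n_ZFP_n_Rpl IPs the log2 fold change of -0.37 (SE 0.15, adjusted p = 0.0569) did not pass, and did with DESeq2 (0.031) and without ND replicate 1 or 2, NZ replicate 2 or RD replicate 3 (0.0249 to 0.0346). The groups did not overlap in 3 of the 7 combinations.

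With the ZFP, Tac1 rose over RD in the n_ZFP_a_Rpl set. RZ held 184, 190, 229 and 230 CPM in the IPs (1.55-fold over RD, log2 0.63, SE 0.16, adjusted p = 0.00647) and 209, 214, 225 and 234 CPM in the Inputs (log2 0.35, SE 0.06, adjusted p = 3.16e-04). All RZ libraries lay above all RD libraries in both fractions. The IPs of RZ reached above the ND mean of 161 CPM (SD 27.1, n = 4), at a mean of 208 CPM (SD 24.8, n = 4), a difference that did not pass (log2 0.37, SE 0.14, adjusted p = 0.0749) except with DESeq2 (0.0269) and without ND replicate 4 (0.0221). In n_ZFP_n_Rpl the differences from RD were 0.24 (IPs, adjusted p = 0.315) and 0.31 (Inputs, 0.236) on the log2 scale. In the hSyn IPs Tac1 was lower in RZ than in ND (log2 -0.29, SE 0.07, adjusted p = 0.00251), with 218 to 261 CPM in RZ.

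Cartpt, the CART precursor, was scarce and variable. Its hSyn IP levels were 2.13, 2.43, 3.81, 4.12 and 6.73 CPM in ND and 0.353, 0.459 and 0.513 CPM in RD (8.64-fold lower, log2 -3.11, SE 0.40, adjusted p = 7.52e-06). The n_ZFP_n_Rpl IPs held 3.48, 4.84, 5.65 and 7.21 CPM in ND and 0.58, 0.695, 0.717 and 0.775 CPM in RD (7.61-fold lower). Neither pair of groups overlapped. In the n_ZFP_a_Rpl IPs 3 ND libraries lay between 4.44 and 4.86 CPM and replicate 4 at 12.6 CPM, against 1.53 to 1.90 CPM in RD (log2 -1.98, SE 0.38). The MG IPs overlapped, with 1.12, 1.33, 1.56 and 1.75 CPM in ND and 0.372, 0.432, 0.891 and 1.23 CPM in RD. There the log2 fold change was -0.99 (SE 0.37, adjusted p = 0.0512). It passed with RLE scaling (adjusted p = 0.0489) and DESeq2 (0.025), and without NZ replicate 2 or 5, RD replicate 2 or RZ replicate 1 or 4 (0.0122 to 0.0497).

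The ZFP comparison called Cartpt in the n_ZFP_n_Rpl IPs. RZ held 1.77, 3.68, 4.79 and 5.35 CPM, 5.61-fold over RD (log2 2.49, SE 0.38, adjusted p = 6.38e-04), and all 4 libraries lay above RD. RZ and ND overlapped in that group (log2 -0.44, SE 0.33, adjusted p = 0.34). The NZ libraries of the same IPs stood at 5.36, 11.6, 12.2 and 15.2 CPM, 3 of them above all ND and RZ libraries. NZ overlapped ND, and the difference did not pass (log2 1.06, SE 0.33, adjusted p = 0.0605) except with DESeq2 (0.0144) and when ND replicate 2, NZ replicate 4 or RZ replicate 1 was left out (0.022 to 0.049). Of the hSyn IPs all 4 RZ libraries, at 0.694 to 1.32 CPM, lay above the 3 RD libraries, but the log2 fold change of 1.06 (SE 0.40) had an adjusted p of 0.676. The n_ZFP_a_Rpl IPs gave 0.67 (SE 0.38, adjusted p = 0.193), which passed in the 2 groups alone (0.0419) and without ND replicate 4 (0.033), the library at 12.6 CPM.

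**Figure D3:**
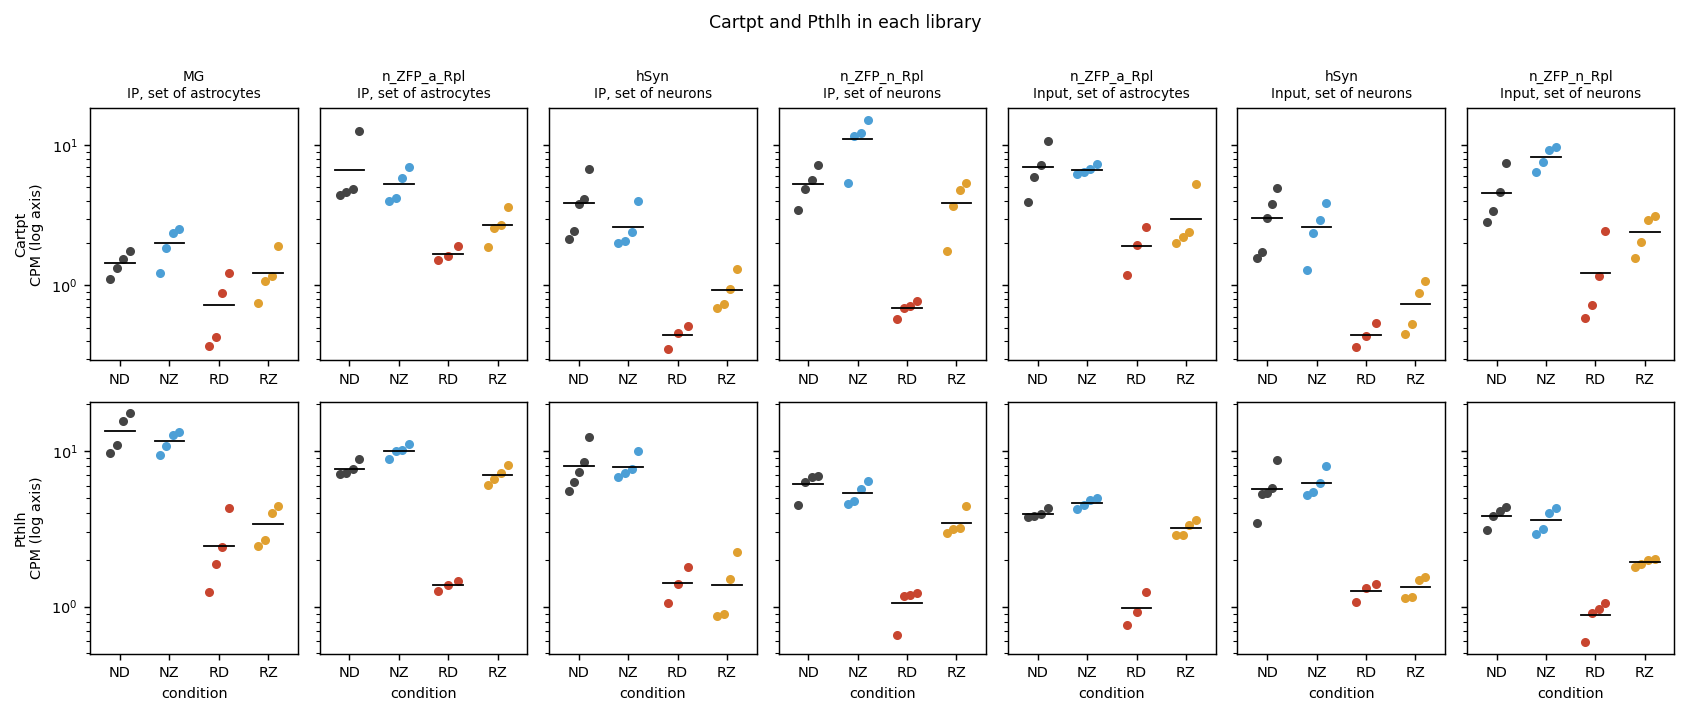
Level of Cartpt and Pthlh in each library, in CPM on a log axis, by set, fraction and condition; each point is 1 library and each bar is the group mean. Pthlh of R6/2 with ZFP overlaps NCAR with Delta in the n_ZFP_a_Rpl IPs, at 6.10 to 8.16 CPM, and overlaps R6/2 with Delta in the hSyn set.

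Pthlh, the parathyroid hormone-related protein gene, fell in all 7 combinations. Levels in the hSyn IPs were 5.55, 6.31, 7.36, 8.52 and 12.4 CPM in ND and 1.06, 1.40 and 1.80 CPM in RD (5.65-fold lower, log2 -2.50, SE 0.34, adjusted p = 1.69e-05). The n_ZFP_a_Rpl IPs held 7.09, 7.23, 7.68 and 8.88 CPM in ND and 1.27, 1.38 and 1.47 CPM in RD (5.62-fold lower, SE 0.13 on the log2 scale, adjusted p = 2.6e-09). In the MG IPs ND ran from 9.75 to 17.6 CPM and RD from 1.25 to 4.30 CPM (log2 -2.45, SE 0.32). ND and RD did not overlap in any of the 7 combinations. Among the other 14 interneuron markers listed, between 8 (MG IPs, 16.2% of all genes) and 13 (hSyn IPs, 25.5%) fell in R6/2 as well. Their medians ran from -0.80 to -1.13 on the log2 scale.

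With the ZFP Pthlh rose in both fractions of n_ZFP_a_Rpl and n_ZFP_n_Rpl. In the n_ZFP_a_Rpl IPs RZ held 6.10, 6.67, 7.26 and 8.16 CPM, 5.13-fold over RD (log2 2.36, SE 0.13, adjusted p = 6.69e-09) and overlapping ND (log2 -0.13, SE 0.10, adjusted p = 0.384). In the n_ZFP_n_Rpl IPs RZ held 2.98, 3.17, 3.21 and 4.46 CPM, 3.24-fold over RD (log2 1.70, SE 0.21, adjusted p = 8.07e-05). These lay below ND, at 4.52, 6.30, 6.85 and 6.94 CPM (log2 -0.83, SE 0.19, adjusted p = 0.00368). The Inputs rose by log2 1.71 (SE 0.16) in n_ZFP_a_Rpl and 1.12 (SE 0.19) in n_ZFP_n_Rpl. In the hSyn IPs RZ stood at 0.868, 0.899, 1.52 and 2.25 CPM, on both sides of the RD libraries (log2 -0.04, SE 0.34), and in the MG IPs at 2.47 to 4.45 CPM (log2 0.45, SE 0.31, adjusted p = 0.455).

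Markers of projection neurons, and of other cells, moved with these genes. Between 16.2% (MG IPs) and 26.2% (n_ZFP_n_Rpl IPs) of all genes fell in RD, depending on the combination. All 12 listed markers shared by both projection neuron classes fell in RD in each of the 7 combinations, with medians from -1.37 to -1.84 on the log2 scale. Their summed level in the hSyn IPs ran from 16800 to 20100 CPM in ND, 7110 to 7240 CPM in RD and 6630 to 7540 CPM in RZ. In the n_ZFP_a_Rpl IPs the sum was 11300 to 13400 CPM in ND, 3190 to 4240 CPM in RD and 8620 to 9950 CPM in RZ, and in the n_ZFP_n_Rpl IPs 11900 to 17400, 4670 to 5970 and 6610 to 10400 CPM. The MG sums were 10600 to 11100, 3080 to 4250 and 3210 to 3810 CPM. With the ZFP all 12 rose in both fractions of n_ZFP_a_Rpl (11.1% of all genes in the Inputs and 19.1% in the IPs). In n_ZFP_n_Rpl 8 rose in both fractions (2.49% and 9.47%), and 0 were called in the MG and hSyn sets. Indirect pathway markers (6 listed) fell for 5 or 6 of 6, with medians between -1.36 and -1.75, and direct pathway markers for 3 or 4 of 6, with medians between -0.34 and -0.56. Of 12 astrocyte markers listed, 2 fell in RD in the MG IPs, near the share over all genes there (16.2%). In hSyn 11 fell in both fractions (21.6% of all genes in the Inputs and 25.5% in the IPs). In n_ZFP_a_Rpl 9 fell in the Inputs and 5 in the IPs (24.7% of all genes in each). In n_ZFP_n_Rpl 10 and 8 fell in the same order (23.7% and 26.2%). The summed level of the 12, in which abundant markers weigh most, did not overlap between ND and RD. It stood at 21600 to 27400 and 13500 to 18700 CPM in the MG IPs and at 6840 to 8930 and 3790 to 3970 CPM in the hSyn Inputs. In the n_ZFP_n_Rpl Inputs it stood at 7710 to 8890 and 4300 to 4590 CPM. The part of these shifts in the members' values was not tested.

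Set against ND, the RZ libraries still held less of several precursors, and this comparison shares its libraries with both comparisons above. The number of the 5 genes called lower was 3 in the MG IPs (17.6% of all genes were lower), 4 in the hSyn Inputs (22.2%), 5 in the hSyn IPs (25.4%), 3 in the n_ZFP_a_Rpl Inputs (18.6%), 3 in the n_ZFP_a_Rpl IPs (13.1%), 3 in the n_ZFP_n_Rpl Inputs (18.4%) and 3 in the n_ZFP_n_Rpl IPs (16.5%). Penk and Pdyn were lower in all 7. For Penk the log2 fold change was -2.47 in the MG IPs, -2.32 in the hSyn IPs, -0.72 in the n_ZFP_a_Rpl IPs and -1.36 in the n_ZFP_n_Rpl IPs. Pdyn was 2.00-fold lower in the MG IPs, and its log2 fold change in the other 3 groups was -1.44, -0.43 and -0.94. The Pdyn value of -0.43 (SE 0.14, adjusted p = 0.0373) did not pass without the filter (0.0609), nor when any of ND replicates 1 and 4 and RZ replicates 1 to 4 was left out (0.0545 to 0.103).

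The ZFP by itself, NZ against ND, changed 1 of the 5 genes in 1 combination. Penk fell in the MG IPs (log2 -0.66, SE 0.17, adjusted p = 0.0336), from 1525 to 1691 CPM in ND to 890, 926, 1106 and 1180 CPM in NZ. The groups did not overlap. The call was lost when ND replicate 1, 2, 3 or 4 or NZ replicate 3 or 5 was left out (adjusted p from 0.0638 to 0.0985). Summed projection neuron markers also differed there, at 5770 to 10600 CPM in NZ, and the NZ library with the lowest sum, replicate 2, had the highest sum of astrocyte markers, 35800 CPM. Over all genes, 7.05% were called in either direction in the MG IPs, 0.00622% in the hSyn Inputs, 0.0261% in the hSyn IPs, 0.957% in the n_ZFP_a_Rpl Inputs, 2.07% in the n_ZFP_a_Rpl IPs, 3.03% in the n_ZFP_n_Rpl Inputs and 7.36% in the n_ZFP_n_Rpl IPs. In those other 6 combinations edgeR called 0 of the 5 genes, beside between 525 and 3765 genes at an unadjusted p under 0.05. DESeq2 called 0 of the 5 in 3 of the 6, 1 in the n_ZFP_a_Rpl IPs (Pthlh, higher, which edgeR also called without ND replicate 4), 2 in the n_ZFP_n_Rpl IPs and 3 in the n_ZFP_n_Rpl Inputs.

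In the n_ZFP_n_Rpl set Cartpt had log2 fold changes of 1.06 in the IPs and 0.85 in the Inputs (adjusted p 0.0605 and 0.21), which did not pass. Penk, Pdyn and Tac1 had values of the other sign, with log2 fold changes of -0.56, -0.60 and -0.48 in its Inputs (adjusted p 0.0651, 0.0953 and 0.0569) and -0.42, -0.59 and -0.41 in its IPs (0.17, 0.079 and 0.114). Its ND libraries differed among themselves in markers of cortical excitatory neurons, whose sum was 1360, 1030, 393 and 602 CPM in replicates 1 to 4 of the IPs, against 69 to 381 CPM in the IPs of the other sets. Replicate 1, with the highest cortical sum, had the least Penk (1164 CPM), and replicate 3, with the lowest, had the most (2020 CPM). The cortical sums of the NZ libraries were 804 to 1160 CPM in the IPs. In the Inputs they were 787 to 942 CPM in NZ and 345 to 1100 CPM in ND. The cortical sums also varied in RD (319 to 812 CPM in the IPs, 606 to 794 CPM in the Inputs). Those of RZ were 459 to 799 CPM in the IPs and 465 to 820 CPM in the Inputs. All comparisons of this set thus draw on libraries that differ in cortical markers. Leaving out ND replicate 1 leaves ND IPs at 1030, 393 and 602 CPM beside those of NZ. The part of these differences in the members' values was not tested. Without ND replicate 1 all 3 genes passed in the Inputs, at log2 fold changes of -0.69 for Penk, -0.78 for Pdyn and -0.59 for Tac1. In the IPs Pdyn passed without it, at -0.77 (adjusted p = 0.00752). Penk also passed in the Inputs without RZ replicate 1 (0.0446) or 4 (0.0438).

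The ZFP difference in R6/2 was set against that in NCAR by an interaction, the log2 difference RZ less RD minus the log2 difference NZ less ND. In the MG IPs, hSyn Inputs and hSyn IPs 0 of 5 genes were called higher, as were 0%, 0% and 0% of all genes with edgeR (542, 301 and 329 genes at an unadjusted p under 0.05, and 33, 1 and 5 with DESeq2). In n_ZFP_a_Rpl 3 of 5 were called in the Inputs (6.69% of all genes) and 3 of 5 in the IPs (11.4%). In n_ZFP_n_Rpl 4 of 5 were called in the Inputs (5% of all genes) and 3 of 5 in the IPs (8.47%). For Penk the interaction was 0.86 and 1.40 in the Inputs and IPs of n_ZFP_a_Rpl and 1.42 in both fractions of n_ZFP_n_Rpl (SE 0.08, 0.11, 0.22 and 0.26). Pthlh gave 1.47, 1.98, 1.21 and 1.89 in the same order. For Pdyn the values that passed were 0.74 in the n_ZFP_a_Rpl IPs, 1.23 in the n_ZFP_n_Rpl Inputs and 1.33 in the n_ZFP_n_Rpl IPs, and for Tac1 0.39 and 0.79 in the Inputs of the 2 sets. In n_ZFP_n_Rpl these values join a higher level with ZFP in R6/2 to a lower one in NCAR. In its Inputs Tac1 differed by 0.31 in R6/2 and by -0.48 in NCAR, and Pdyn by 0.63 and -0.60, of which none was called by itself. Penk differed there by 0.86, which was called, and by -0.56, which was not. The Pdyn value in the n_ZFP_a_Rpl IPs did not pass without RD replicate 2, RD replicate 3 or RZ replicate 2 (adjusted p 0.0699, 0.0594 and 0.0523).

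The balance between the peptides of both pathways was read as the log2 ratio of 2 genes within a library, which needs no scaling between libraries. Transcript lengths differ, so only the change in a ratio is interpretable. Tac1 over Penk was higher in RD than in ND by 1.99 in the MG IPs, 2.14 in the hSyn IPs, 1.96 in the n_ZFP_a_Rpl IPs and 2.00 in the n_ZFP_n_Rpl IPs on the log2 scale, which is 3.97, 4.42, 3.90 and 3.99-fold. No RD library overlapped ND in any of these. Exact two-sided permutation tests over libraries gave p = 0.0286, 0.0357, 0.0571 and 0.0286, in each case the smallest p that the group sizes allow. After adjustment over the 28 ratio comparisons the smallest value reached was 0.0762, and groups of these sizes did not allow one under 0.05.

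Pdyn over Penk rose less in RD, by 0.96, 0.85, 1.21 and 0.73 on the log2 scale in the same 4 groups of IPs, each also at the smallest p possible. With the ZFP, Tac1 over Penk came down again in n_ZFP_a_Rpl, by a log2 difference of -0.87 in the IPs (SE 0.14) and -0.60 in the Inputs (SE 0.08), and in n_ZFP_n_Rpl by -0.74 (SE 0.18) and -0.53 (SE 0.13). In the hSyn IPs it differed by -0.12 (SE 0.06, exact permutation p = 0.114). In the MG IPs the difference was 0.51 in the other direction (SE 0.18, exact permutation p = 0.0571). Pdyn over Penk differed by -0.91 in the n_ZFP_a_Rpl IPs, -0.24 in the n_ZFP_n_Rpl IPs, 0.00 in the hSyn IPs and 0.56 in the MG IPs.

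**Figure D4:**
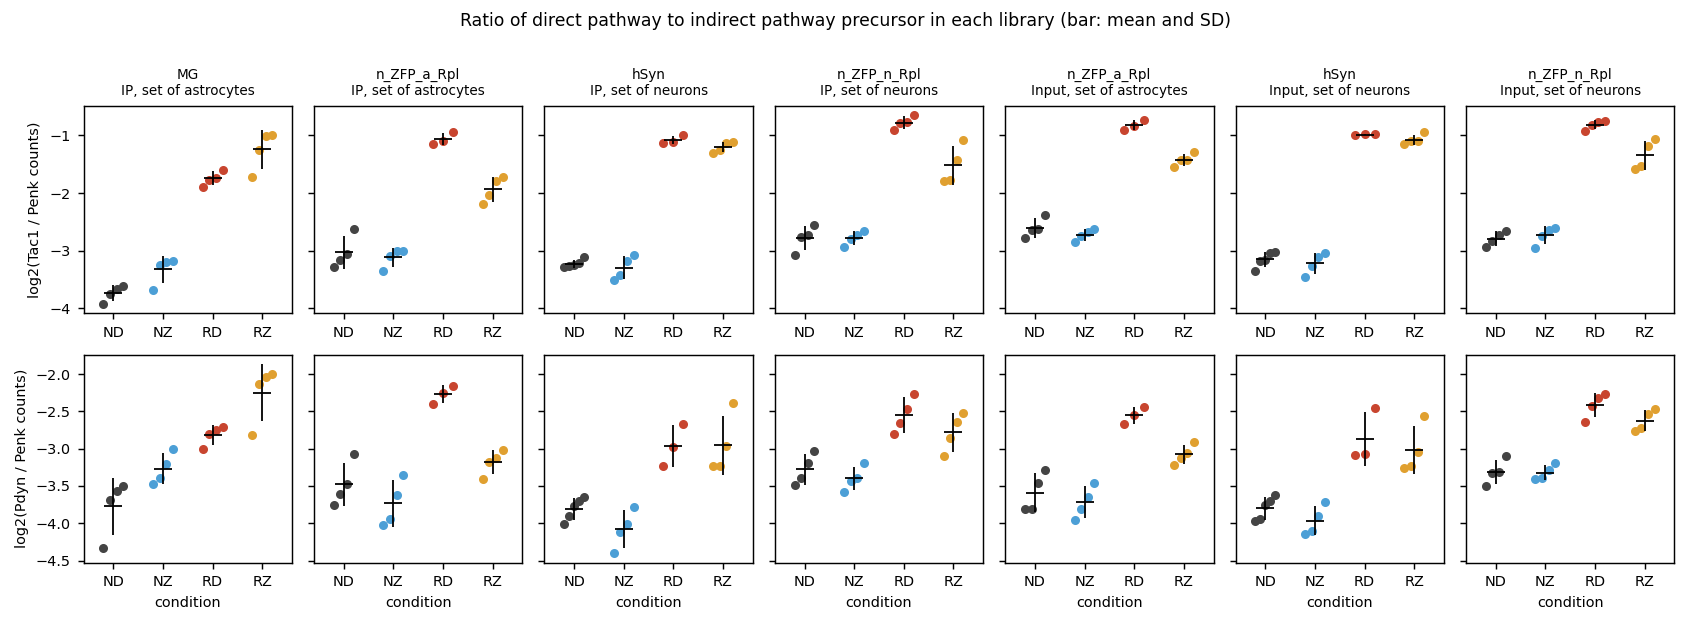
Log2 ratio of Tac1 over Penk and of Pdyn over Penk within each library, by set, fraction and condition; each point is 1 library and the cross is the group mean with its SD. Tac1 over Penk lies higher in R6/2 with Delta than in NCAR with Delta in every set, and lies between them in R6/2 with ZFP in the n_ZFP_a_Rpl and n_ZFP_n_Rpl sets.

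The IPs were compared with Inputs of the same set in ND. Of the 5 genes, 4 were higher in the hSyn IPs (31.6% of all genes were higher), 3 in the n_ZFP_a_Rpl IPs (35.5%) and 4 in the n_ZFP_n_Rpl IPs (38.1%). In the neuron sets Penk, Pdyn, Tac1 and Pthlh were all higher in the IP, by 0.71, 0.71, 0.64 and 0.67 on the log2 scale in hSyn and by 0.84, 0.89, 0.85 and 0.92 in n_ZFP_n_Rpl. Cartpt did not pass, at 0.53 (SE 0.33) and 0.44 (SE 0.36), though in hSyn it did without Input ND replicate 0 (adjusted p = 0.0417). Pthlh in hSyn did not pass without IP ND replicate 1 (adjusted p = 0.0915) or Input ND replicate 0 (0.0544).

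In the n_ZFP_a_Rpl set, labelled astrocytes, the projection neuron peptides were not removed by the IP. Penk was higher in the IP than in the Input by 0.19 (SE 0.07, adjusted p = 0.0106) and Pdyn by 0.31 (SE 0.14, adjusted p = 0.0452), while Tac1 gave -0.22 (SE 0.11, adjusted p = 0.0801). Same-numbered IP and Input libraries of that set deviated together, and with them paired in a replicate block Tac1 was lower in the IP (log2 -0.23, adjusted p = 0.00382), as it was with DESeq2 (0.0384) and without IP ND replicate 4 (0.00731). The Penk call was lost without Input ND replicate 4 (adjusted p = 0.055), and that of Pdyn with RLE scaling (0.059), without the filter (0.0533) and in 14 of 30 fits that left out 1 library (0.0504 to 0.223). With the libraries paired, Pdyn passed (adjusted p = 7.89e-07), as did Penk (6.18e-05). The libraries left out in those 14 fits were ND 1 and 4, NZ 2 and 4, RD 3 and RZ 1 to 4 of the IPs and ND 2 and 3, NZ 4 and RZ 3 and 4 of the Inputs. Pthlh was higher in the IP by 1.15 (SE 0.11, adjusted p = 2.72e-10), and 13 of the other 14 interneuron markers were higher too, with a median of 1.42.

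The astrocyte IPs were rich in astrocyte RNA and also held neuronal RNA. All 12 astrocyte markers were higher in the n_ZFP_a_Rpl IPs than in the Inputs (median 1.83 on the log2 scale), and microglial and oligodendrocyte markers were lower (8 of 8 each, medians -6.19 and -1.13). Of the 16255 genes tested there, edgeR called 35.5% higher. DESeq2 called 5558 genes higher and 6134 lower. The summed astrocyte markers were 12200 to 35800 CPM in the astrocyte IPs and 1600 to 9100 CPM in the neuron IPs. Such sums are not on 1 scale across sets and fractions, which were scaled separately. In hSyn ND the astrocyte sum was 5480 to 8100 CPM in the IPs and 6840 to 8930 CPM in the Inputs. In n_ZFP_a_Rpl ND the sum of pan-neuronal markers was 6080 to 6390 CPM in the IPs and 5320 to 5810 CPM in the Inputs. None of the 12 projection neuron markers was at 0 in an astrocyte IP. In n_ZFP_a_Rpl 6 of the 12 were lower in the IPs than in the Inputs and 1 was higher, beside the counts over all genes given above. Which cells of the astrocyte IPs carried the members' RNA was not tested.

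The change of a precursor in the IP was set against its change in the Input of the same set. For RD against ND, edgeR called 0 of 5 in hSyn (1.01% of all genes, 1650 at an unadjusted p under 0.05), 0 of 5 in n_ZFP_a_Rpl (1.86%, 2169) and 0 of 5 in n_ZFP_n_Rpl (3.68%, 3099), and DESeq2 called none of the 5. With the IP and Input libraries paired, Penk passed in n_ZFP_n_Rpl (log2 0.20, adjusted p = 0.0315). For RZ against RD the counts were 0 of 5 in hSyn (0% of all genes, 345), 1 of 5 in n_ZFP_a_Rpl (1.86%) and 0 of 5 in n_ZFP_n_Rpl (0.253%, 977), and DESeq2 called 0 of 5 in hSyn and n_ZFP_n_Rpl. The gene called was Penk, which rose by 0.52 (SE 0.10, adjusted p = 0.00684) more in the astrocyte IP than in its Input. Marker sums of these IPs differed between RD and RZ as well: astrocyte markers stood at 15000 to 16200 CPM in RD and 12200 to 13300 CPM in RZ, and 11 of 12 fell, against 4410 to 4480 and 4220 to 4590 CPM in the Inputs. Projection neuron markers stood at 4670 to 5560 CPM in RD and 8400 to 9400 CPM in RZ in those Inputs. Their part in the Penk value was not tested.

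Differences between sets were tested in a fit of all 63 IP libraries, where cell type and set cannot be told apart. The fall of Cartpt in RD was larger in the neuron IPs than in the astrocyte IPs (log2 -1.52, SE 0.40, adjusted p = 0.0041), the only 1 of 5 genes called, beside 20.7% of all genes. Penk differed by -0.19 (SE 0.15) and Pdyn by -0.48 (SE 0.19, adjusted p = 0.0644). The rise with ZFP was larger in the n_ZFP_a_Rpl IPs than in the MG IPs for 2 of 5 genes (14.6% of all genes differed), Penk by 1.89 (SE 0.21) and Pthlh by 1.90 (SE 0.39). It was also larger in the n_ZFP_n_Rpl IPs than in the hSyn IPs for 2 of 5 (3.75%), again Penk by 0.99 (SE 0.21, adjusted p = 0.00283) and Pthlh by 1.73 (SE 0.41, adjusted p = 0.00934). In ND, 2 of 5 genes differed between the n_ZFP_n_Rpl and the n_ZFP_a_Rpl IPs, beside 57.4% of all genes: Pdyn was higher in the neuron IPs by 0.54 (SE 0.18) and Tac1 by 0.55 (SE 0.15). Penk gave 0.31 (SE 0.14, adjusted p = 0.0607), and passed with RLE scaling (0.0461) and DESeq2 (0.0391).

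The other genes of the pathway were counted in the IPs of RD against ND, where 17.4% of all genes rose and 16.2% fell in MG, 25.4% and 25.5% in hSyn, 20.6% and 24.7% in n_ZFP_a_Rpl and 25.2% and 26.2% in n_ZFP_n_Rpl. In RZ against RD 19.1% rose and 14.7% fell in n_ZFP_a_Rpl, and 9.47% and 7.95% in n_ZFP_n_Rpl. The receptor list held 9 genes of the opioid, tachykinin and parathyroid hormone receptor families, among them Oprl1 and Pth2r, whose main ligands come from genes other than these 5. Of the 9, 4 fell and 1 rose in the MG IPs, 7 and 2 in the hSyn IPs, 5 and 0 in the n_ZFP_a_Rpl IPs and 6 and 2 in the n_ZFP_n_Rpl IPs, with median log2 fold changes of -0.17, -1.10, -0.35 and -1.07. Oprd1, the delta opioid receptor, fell by 1.87, 1.73, 1.68 and 1.62 on the log2 scale in those groups. The kappa receptor Oprk1 fell by 1.48 in n_ZFP_a_Rpl and 1.55 in n_ZFP_n_Rpl, and the substance P receptor Tacr1 fell by 1.48 in MG and 1.67 in hSyn. Oprl1, the nociceptin receptor, rose by 0.49 in MG, 0.66 in hSyn and 0.62 in n_ZFP_n_Rpl. With the ZFP 5 receptors rose in the n_ZFP_a_Rpl IPs and 6 rose and 1 fell in the n_ZFP_n_Rpl IPs, against 0 in MG and hSyn. Oprk1 rose by 1.72 and 1.29 and Oprd1 by 1.45 and 0.90.

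In a list of other neuropeptide precursors and further secreted proteins, more genes fell than rose in R6/2. The list was not limited to peptide precursors: it included Nxph1, Nxph2, Cbln1, Cbln2, Cbln4 and Igf1, and the granins Chga, Chgb and Scg2. Nxph1 fell by 0.87 in the MG IPs and 1.03 in the n_ZFP_a_Rpl IPs. With the ZFP it rose by 0.77 in the n_ZFP_a_Rpl IPs and 0.66 in the n_ZFP_n_Rpl IPs. Of the 54 listed, 10 of 29 tested fell and 2 rose in the MG IPs, 19 and 2 of 33 in hSyn, 16 and 0 of 31 in n_ZFP_a_Rpl, and 23 and 2 of 32 in n_ZFP_n_Rpl, with medians of -0.33, -0.66, -0.59 and -0.90. Trh, the thyrotropin-releasing hormone precursor, fell by 1.41 in MG and 1.38 in n_ZFP_a_Rpl, and Npy, the neuropeptide Y precursor, by 1.08 in hSyn. Nts, which encodes neurotensin, rose by 1.39 in MG. With the ZFP 8 rose and 1 fell in the n_ZFP_a_Rpl IPs, among them Trh (0.81), and 13 rose and 0 fell in the n_ZFP_n_Rpl IPs, among them the somatostatin gene Sst (0.64). None was called in MG or hSyn.

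Genes that process the precursors were called in both directions, mostly about as often as all genes. Of 25 listed, 3 fell and 6 rose in the MG IPs, 6 and 5 in hSyn, 6 and 6 in n_ZFP_a_Rpl and 11 and 6 in n_ZFP_n_Rpl, with medians between -0.10 and 0.02. Apart from the 11 that fell in n_ZFP_n_Rpl, these counts lay near the shares over all genes given above. The prohormone convertase Pcsk2 fell by 0.74 in MG and 0.83 in n_ZFP_a_Rpl and rose by 0.70 with the ZFP in the latter. Scg5, which encodes the 7B2 chaperone of that convertase, rose by 0.77 in n_ZFP_n_Rpl and fell by 0.81 there with the ZFP. Of 12 peptidases that cut released peptides, 2 fell and 3 rose in MG, 2 and 3 in hSyn, 4 and 2 of 11 in n_ZFP_a_Rpl and 4 and 1 in n_ZFP_n_Rpl. These small counts were also not far from those shares. Ace, angiotensin-converting enzyme, fell by 1.21, 1.83, 1.23 and 1.50, and Ece2, an endothelin-converting enzyme relative, rose by 0.56, 1.15, 0.54 and 1.33. With the ZFP Ace rose by 0.47 and 0.57 and Ece2 fell by 0.44 and 0.57 in the n_ZFP_a_Rpl and n_ZFP_n_Rpl IPs.

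The genes whose levels were most like those of each precursor were sought among 10803 genes by Pearson's r of log2 CPM over the 63 IP libraries, each centred on its set mean. These libraries share sets and conditions, so r mainly follows the difference between conditions and is a description. Penk was closest to Pde10a (0.986), Ppp1r1b (0.982) and Pmepa1 (0.981). Pdyn was closest to Ap1s1 (0.934), Ccm2 (0.93) and Ypel2 (0.927), and Pthlh to Oprd1 (0.961), Gsg1l (0.948) and Scn4b (0.945). Cartpt was closest to Peg10 (0.884), Ldhd (0.873) and Gpr153 (0.868). Tac1 had no gene as close, with Klhl13 (0.862), Prkch (0.796) and Akap1 (0.758) at the top. Between members r was 0.929 for Penk and Pthlh, 0.909 for Penk and Pdyn, 0.734 for Penk and Cartpt, 0.47 for Pdyn and Tac1 and 0.346 for Penk and Tac1. Centred on the mean of each group instead, which leaves only the spread between replicates, the order changed: Pdyn and Tac1 had 0.648, Penk and Tac1 0.561 and Penk and Pdyn 0.425. Penk and Pthlh then had 0.307 and Penk and Cartpt -0.101. The gene closest to Tac1 was then Drd1a (0.871), the dopamine receptor of direct pathway neurons. Among indirect pathway markers Tac1 had 0.759 with Gpr6, 0.72 with Adora2a and 0.475 with Drd2. The closest genes were Pde7b (0.843) for Penk, Strip2 (0.802) for Pdyn, Hap1 (0.682) for Cartpt and Dlx6os1 (0.707) for Pthlh.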

How the data were processed

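RNA-seq of ribosome-bound RNA (IP) and tissue RNA (Input) was analysed in 110 libraries. STAR, HTSeq and the build mm10 are named in the submitters' processing notes, without versions or options, and no source used here states whether counting used strand. Libraries were made with a TruSeq kit, per the labels' protocols. The authors deposited raw read counts per gene symbol in 24060 rows; 4 rows whose symbol occurs more than once were dropped. No sample column was left unused.

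Counts were fitted in R 4.3.3 with edgeR 4.0.16 (TMM scaling, filterByExpr with a minimum count of 10 and a total of 15, robust quasi-likelihood test, Benjamini-Hochberg at 0.05). Each set and fraction was 1 fit of its 4 conditions; IP against Input used both fractions of a set, and comparisons between sets used all IP libraries. Ratios of 2 genes were compared with exact permutation tests in scipy 1.17.1. Alternatives were RLE scaling, no filter, a replicate block, the 2 groups alone, DESeq2 1.42.0 and leaving out each library. No 2 libraries within a set and fraction were copies (810 pairs). IP and Input libraries of the same number deviated together in n_ZFP_a_Rpl (15 of 15 pairs, r 0.395 to 0.6) and n_ZFP_n_Rpl (16 of 16, r 0.453 to 0.676), and in 11 of 14 pairs in hSyn. The hSyn pairs that did not were ND replicates 2, 3 and 4 (r -0.0372, -0.188 and -0.0727), so their numbers may not match IP to Input. Same-numbered libraries of different conditions gave r from -0.359 (hSyn IPs, 3 of 19 pairs over 0.1) to 0.312 (n_ZFP_n_Rpl IPs, 9 of 24 over 0.1). The scripts were tested on simulated data.

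The members, the gene lists and the markers were chosen with earlier results of these data known. Other genes named are, per list and direction, up to 2 with the largest log2 fold change past the threshold at a mean of at least 5 CPM, and the 3 most correlated genes per member. Drd1a and the other genes named with group mean centring were chosen after their values were seen. Promoters are RefSeq's for GRCm38.p6.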

Additional observations from a re-analysis of the deposited data

Results flagged for a closer look

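In 7 of the 120 groups of 4 or 5 libraries tested, 1 library stood apart from the rest (Dixon's test at 95%, which chance meets in about 1 of 20 groups). The gap to the nearest other library as a share of the range was 0.949 for Cartpt in the n_ZFP_a_Rpl IPs of ND, where replicate 4 had 12.6 CPM and the others 4.44 to 4.86 CPM, and 0.877 for Cartpt in the n_ZFP_a_Rpl Inputs of RZ, where replicate 4 had 5.29 CPM and the others 2.02 to 2.42 CPM. For Pdyn it was 0.923 in the MG IPs of ND (replicate 3 at 83.3 CPM, the others at 131 to 135 CPM). Penk gave 0.879 in the hSyn IPs of NZ (replicate 3 at 3262 CPM, the others at 2701 to 2769 CPM) and 0.876 in the n_ZFP_a_Rpl IPs of NZ (replicate 2 at 1571 CPM, the others at 1321 to 1352 CPM). Pthlh gave 0.912 in the n_ZFP_n_Rpl IPs of RD (replicate 2 at 0.653 CPM, the others at 1.17 to 1.22 CPM) and 0.849 in the n_ZFP_n_Rpl IPs of RZ (replicate 1 at 4.46 CPM, the others at 2.98 to 3.21 CPM).

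Effects that differed between groups by edgeR's test of the difference are given as log2 values. The ZFP difference in R6/2 less that in NCAR was, for Penk, 0.86 and 1.40 in the Inputs and IPs of n_ZFP_a_Rpl and 1.42 and 1.42 in those of n_ZFP_n_Rpl. Pthlh differed in the same way by 1.47, 1.98, 1.21 and 1.89. For Pdyn the difference was 0.74 in the n_ZFP_a_Rpl IPs and 1.23 and 1.33 in the Inputs and IPs of n_ZFP_n_Rpl, and for Tac1 0.39 and 0.79 in the Inputs of the 2 sets. The rise of Penk with the ZFP was larger in the n_ZFP_a_Rpl IPs than in the Inputs by 0.52, larger in the n_ZFP_a_Rpl IPs than in the MG IPs by 1.89 and larger in the n_ZFP_n_Rpl IPs than in the hSyn IPs by 0.99. Between the same pairs of sets Pthlh differed by 1.90 and 1.73. The log2 fold change of Cartpt in R6/2 was lower in the neuron IPs than in the astrocyte IPs (-1.52).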

How the results depend on the processing

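No member's log2 fold change past the threshold turned its sign under RLE scaling, no filter, a replicate block, DESeq2, the 2 groups alone or without any 1 library. Of 1080 values under the other settings, 1036 stayed on their side of the threshold, 39 moved past it and 5 fell back. The number of the 5 genes called moved by over 1.5 times as follows, and further counts by 1 gene, such as RD against ND with DESeq2 in the MG IPs (3 to 4) and RZ against ND in the 2 groups alone in the n_ZFP_a_Rpl Inputs (3 to 2). With DESeq2 it went from 0 to 1 for NZ against ND in the n_ZFP_a_Rpl IPs, 0 to 3 in the n_ZFP_n_Rpl Inputs and 0 to 2 in the n_ZFP_n_Rpl IPs, from 3 to 5 for RZ against ND in the n_ZFP_n_Rpl Inputs, from 3 to 5 for the interaction in the n_ZFP_n_Rpl IPs, and from 1 to 2 for RD against ND between neuron and astrocyte IPs. In the 2 groups alone, RZ against RD in the n_ZFP_n_Rpl Inputs went from 2 to 4. The replicate block moved NZ against ND from 1 to 0 in the MG IPs (Penk, log2 -0.70, adjusted p = 0.212) and from 0 to 1 in the n_ZFP_n_Rpl IPs (Tac1, log2 -0.40, adjusted p = 0.0447). Paired IP and Input libraries moved the change in IP less Input for RD against ND from 0 to 1 in n_ZFP_n_Rpl.

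Leaving out 1 library at a time gave a count of 0 to 1 for RZ against RD in the MG IPs, and for NZ against ND 0 to 1 in the MG, n_ZFP_a_Rpl and n_ZFP_n_Rpl IPs and 0 to 3 in the n_ZFP_n_Rpl Inputs. The largest of these came without ND replicate 1. The ratio differences between RD and ND kept their direction with 0.5 counts added and without any 1 library. For RZ against RD, Pdyn over Penk turned in the hSyn IPs from 0.00 to as low as -0.18 (without RZ replicate 1; also without RD replicate 1 or 2) and in the hSyn Inputs from -0.15 to 0.06 (without RD replicate 3). Their adjusted p could not pass at these group sizes, and says nothing about stability. Over all genes, DESeq2 called 223 genes higher and 168 lower for RZ against RD in the MG IPs, where edgeR called 2 and 10, and 657 higher against 394 in the n_ZFP_n_Rpl Inputs. The genes most like each member changed with the centring. Cartpt, at its low counts, had the widest standard errors of the 5 genes for RD against ND. The cause of these changes was not tested.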
